A study of Zea mays with 12 samples.

Results

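Seedling shoots of maize homozygous for the mutant allele mop1-1 were compared with those of their homozygous wildtype siblings (Mop1, WT) without added hormone, a comparison called Group D. It used 6 of the 12 RNA-seq libraries of the series, 3 from mop1-1 MS and 3 from WT MS, and covered all 26401 features that were measured well enough to test, out of 38444 in the count table. Seedlings of both groups carried the mop1-1 or Mop1 allele in the inbred B73, came from the selfed ear of a heterozygote, and were harvested at the V3 stage after their roots had stood for 1 h in MS medium, a plant nutrient solution, with 0 µM abscisic acid (ABA). The roots were then removed. The other 6 libraries, mop1-1 ABA and WT ABA with 3 each, came from seedlings of the same genotypes given 50 µM ABA for 1 h. They are used below as the same measure in libraries outside the Group D contrast, although they entered the filter and the estimate of spread. The replicates were described as biological. How many seedlings went into a library is not given in the sources used here.

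MOP1 is an RNA-dependent RNA polymerase of RNA-directed DNA methylation (RdDM). In this pathway transcripts of a locus are copied into double-stranded RNA, cut into small interfering RNAs and used to guide DNA methylation back to the locus, which keeps transposons and the genes beside them silent. Maize is known for paramutation, the heritable silencing of alleles such as those of the pigment gene b1, and mop1 was found as a gene required for it. The baseline comparison asks which transcripts depended on MOP1 in shoots that had received no stress hormone.

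The table holds 3 main kinds of feature. Annotated genes carry identifiers of the B73 version 4 genome (28534, of which 19500 were tested), assembled loci carry only the number that the transcript assembler gave them (9774, of which 6856 were tested), and microRNA genes give the precursors of microRNAs (104, of which 29 were tested). The deposited counts summed to between 52400521 and 64564824 per library over the 6 MS libraries, and levels are given in CPM, read counts scaled by the size of the library, which are not corrected for transcript length. Libraries of a group correlated at 0.939 to 0.946 in WT MS and 0.945 to 0.948 in mop1-1 MS, and libraries of different genotype at 0.914 to 0.933 (Pearson's r across features on the log scale, with no test). Photosynthesis genes marked the tissue as green shoot, with 1683 CPM in WT MS for the ferredoxin gene fdx2 and 2101 CPM for psbs1, a photosystem II protein. The 1 gene with a root marker name was below the level needed for a test, and no gene of the table was named as a zein, the storage proteins of endosperm. The number of features called depended most on WT MS replicate 3, and results without it are given where they differ. The mop1 gene itself was not analysed here, so directions rest on the genotype labels and were not checked on the targeted gene.

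Group D held 239 differentially expressed features (DEGs), of which 182 were higher and 57 lower in mop1-1 MS. Called means past both thresholds of the edgeR quasi-likelihood (QL) test, namely 0.05 for the adjusted p and 0.95 for the size of the log2 fold change (log2FC, given with its standard error as SE). Across the 26401 features tested, 0.905% were called, 0.689% as higher and 0.216% as lower. Assembled loci were called at 1.94% (133 of 6856) and annotated genes at 0.538% (105 of 19500). Of the assembled DEGs 113 were higher and 20 lower, and of the annotated DEGs 69 were higher and 36 lower. The median fold of the higher DEGs was 13.03 among assembled loci and 7.06 among annotated genes, and that of the lower DEGs was 6.21 and 3.46. The median log2 fold change over all features was -0.0045. For each DEG the 3 libraries of a genotype lay wholly above or below the 3 of the other. Over all features such separation was seen in 7.45% for higher and 5.85% for lower levels in mop1-1 MS. The calls rest on the same libraries, so the separation of the DEGs is no added support for them. Both genotypes are whole shoots, so fewer cells of a type and less RNA per cell cannot be told apart. The plot of mean levels shows the DEGs against the rest.

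**Figure D1:**
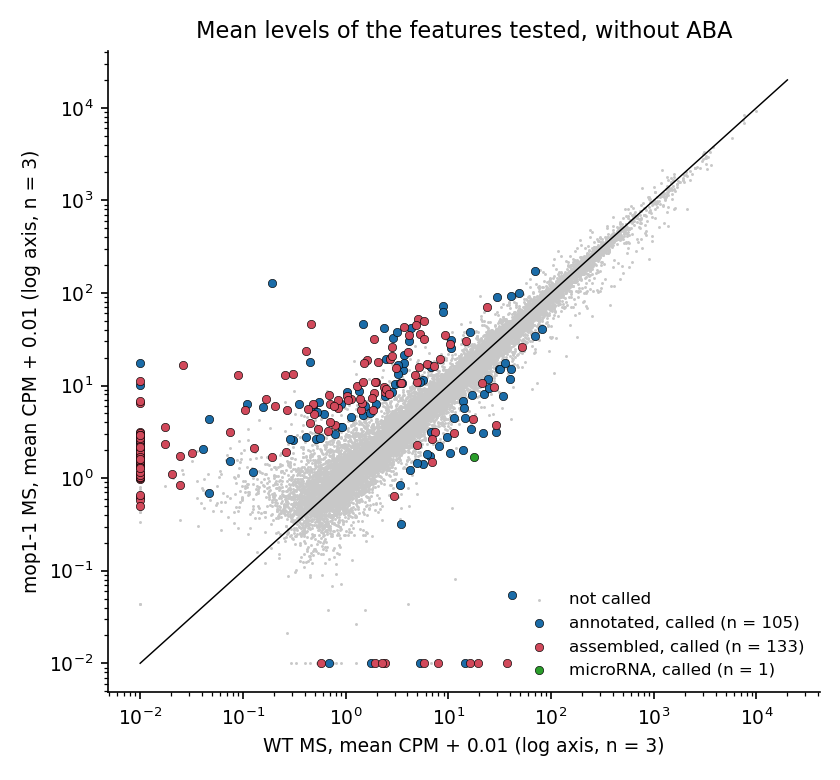
Mean level of each of the 26401 features in WT MS (horizontal) and mop1-1 MS (vertical), in CPM with 0.01 added, both axes logarithmic, 3 libraries per group. Grey points were not called, coloured points are the 239 DEGs by kind, and the line marks equal levels. Points on the left edge (offset 0.01) had no counts in WT MS, and those on the bottom edge none in mop1-1 MS.

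A set of 52 DEGs had at most 3 counts over the 3 WT MS libraries together and were transcribed in mop1-1 MS. They were 43 assembled loci and 9 annotated genes, and 48 of them were placed on the genome away from mop1. Of the 85 tested features that were this low in WT MS, these 52 were called. A feature this low was tested only if libraries of other groups reached the low-count filter. The share called was therefore partly set by the filter, and nothing is read from it. Their mean in mop1-1 MS was 0.491 to 17.5 CPM, with a median of 1.79 CPM. For the 45 with 0 counts in WT MS the change was at least 28.2-fold to at least 997-fold, with a median bound of 102-fold, where the floor was 3 counts over the WT MS group and covers counting error only.

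The largest bound among these features was that of the annotated gene Zm00001d003140, with 0 counts in the 3 WT MS libraries and 22.9, 9.50 and 20.02 CPM in the mop1-1 MS libraries (at least 997-fold higher; adjusted p = 1.64e-04, edgeR QL test). Zm00001d023657 on chromosome 10 had 0 counts in WT MS and 9.25, 10.2 and 10.7 CPM in mop1-1 MS, at least 579-fold higher. Both were off in each WT library and on in each mutant library without ABA. Zm00001d025140, also on chromosome 10, stood at 3.70, 2.06 and 2.96 CPM in mop1-1 MS against 0 counts, at least 166-fold higher. Zm00001d047778 on chromosome 9 stood at 2.15, 2.32 and 2.93 CPM against 0 counts, at least 142-fold higher, but its counts nearly equal those of a further DEG, Zm00001d029769 (866 and 859 over the 12 libraries), so the pair may share reads and cannot be counted as separate genes with certainty.

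The assembled loci that were switched on behaved alike across replicates, with more spread in level. MSTRG.24840 on chromosome 7 had 0 counts in WT MS and 5.04, 5.96 and 9.21 CPM in mop1-1 MS (at least 387-fold higher; adjusted p = 8.43e-05, edgeR QL test). MSTRG.1506 on chromosome 1 stood at 2.64, 4.08 and 12.7 CPM against 0 counts (at least 369-fold higher). MSTRG.25939 on chromosome 7 stood at 5.46, 1.76 and 2.06 CPM (at least 177-fold higher). In each of these the lowest mutant library was above every WT MS library, while the mutant libraries also differed among themselves, most of all in MSTRG.1506. The calls of MSTRG.19661 (at least 180-fold higher) and of the annotated gene Zm00001d003332 (at least 158-fold higher) were the least firm among those named here. They ended in 7 and 8 of the 12 fits that left out 1 library, among them those without WT MS replicate 2 (adjusted p = 0.0996 and 0.0875, edgeR QL test). The call of MSTRG.29572 (at least 641-fold higher) also ended there, with an adjusted p of 0.0567.

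The WT ABA libraries give the same seedling tissue of the same genotype, and there 35 of the 52 features also had 0 counts and 37 at most 3. A further 8 had more than 10 counts in at least 1 WT ABA library, and these are named after their values were seen. The annotated gene Zm00001d003332 had 69, 97 and 0 counts in WT ABA replicates 1, 2 and 3, against 0 in all 3 WT MS libraries. MSTRG.29572 had 386, 547 and 12 counts, and MSTRG.12792 on chromosome 3 had 518, 747 and 0. MSTRG.8180 had 23, 81 and 0 counts and MSTRG.8301 had 64, 68 and 0, both on chromosome 2. In these 5 features the counts lay in WT ABA replicates 1 and 2, and replicate 3 was at or near 0 like WT MS. Of the 5, Zm00001d003332 was placed 26 genes before mop1. MSTRG.8180 and MSTRG.8301 have numbers between 8147 and 8875, the range placed within 400 genes of mop1. The remaining 3 of the 8 had 30 counts (MSTRG.12845), 12 (MSTRG.19661) and 12 (MSTRG.25939) over the WT ABA libraries. Silence in WT MS was therefore not silence in each WT library for these 8, and the difference between the ABA and MS effects of none passed its test (smallest unadjusted p = 1.00e-03 for MSTRG.29572, adjusted p = 1.00, edgeR QL test).

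The other 130 DEGs higher in mop1-1 MS were already transcribed in WT MS, 70 of them assembled loci and 60 annotated genes. Their median fold was 7.18 among assembled loci and 5.53 among annotated genes, and their level in mop1-1 MS reached 172 CPM. Over both sets of higher DEGs, the fold was 16 or more in 55 of 113 assembled loci and in 20 of 69 annotated genes, and under 4 in 16 and 23. In mop1-1 MS 32 of the annotated and 37 of the assembled higher DEGs reached a mean of 10 CPM.

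Zm00001d038862 on chromosome 6 was the most abundant of them, at 84.4, 51.6 and 74.4 CPM in WT MS against 169, 183 and 163 CPM in mop1-1 MS (log2FC 1.29, SE 0.17, adjusted p = 2.07e-03, edgeR QL test). Zm00001d003304 on chromosome 2 went from 0.283, 0.0807 and 0.185 CPM to 127, 128 and 132 CPM (log2FC 9.50, SE 0.52, adjusted p = 5.19e-06), which it shared with MSTRG.10871 as the smallest adjusted p of Group D. It was thus almost silent in WT and among the more abundant DEGs in the mutant. Zm00001d000974 stood at 55.1, 45.0 and 47.6 CPM in WT MS against 124, 100.3 and 76.1 CPM in mop1-1 MS (log2FC 1.02), and its call was lost when WT MS replicate 2 was left out (adjusted p = 0.0567 by the QL test of edgeR) and without mop1-1 MS replicate 1 (log2FC 0.84). Of the assembled loci, MSTRG.13257 on chromosome 3 rose from 21.1, 26.7 and 23.0 CPM to 76.6, 67.0 and 66.8 CPM. MSTRG.10871 on chromosome 2 rose from 5.51, 5.87 and 3.95 CPM to 51.0, 51.8 and 53.7 CPM, and MSTRG.15901 on chromosome 4 from 7.69, 4.57 and 5.26 CPM to 46.3, 43.5 and 59.6 CPM. The spread within each group was small beside the gap in all 3 loci. The plot of 8 features by library shows both kinds of higher DEG beside lower ones.

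**Figure D2:**
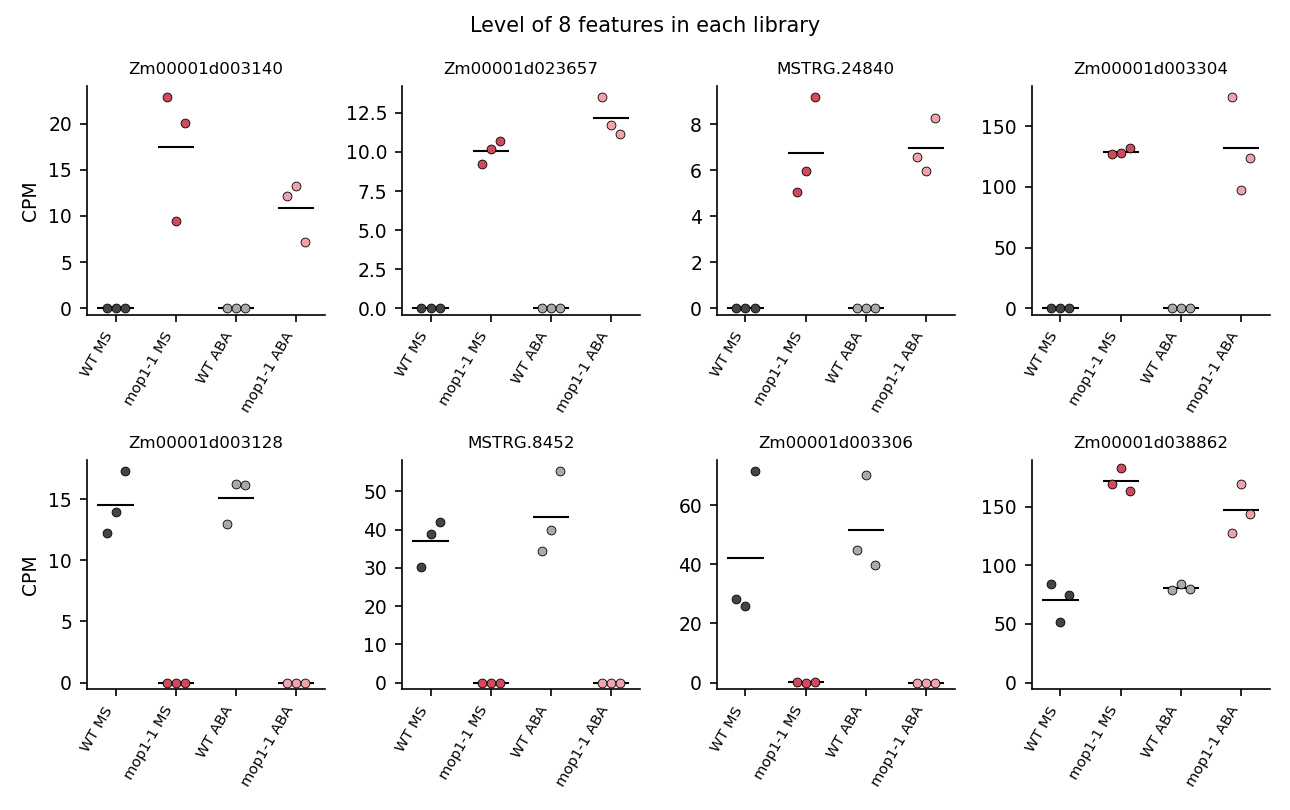
Level in CPM (vertical, linear axis from 0) of 8 features in the 12 libraries, by group; each point is 1 library and the bar is the mean of 3. Zm00001d003140, Zm00001d023657, MSTRG.24840 and Zm00001d003304 are at or near 0 in the WT libraries, Zm00001d003128, MSTRG.8452 and Zm00001d003306 at or near 0 in the mop1-1 libraries, and Zm00001d038862 rises from 51.6 to 84.4 CPM in WT MS to 163 to 183 CPM in mop1-1 MS.

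The 57 lower DEGs were 36 annotated genes, 20 assembled loci and the microRNA gene MIR156e. Of these, 13 had 0 counts in the 3 mop1-1 MS libraries (4 annotated genes and 9 assembled loci), and the same 13 had 0 counts in the 3 mop1-1 ABA libraries. In WT MS they stood at 0.572 to 37.0 CPM with a median of 5.26 CPM, and the change was at least 34.7-fold to at least 2287-fold (median bound 307-fold, floor of 3 counts over the mop1-1 MS group). Of the 31 tested features with at most 3 counts over mop1-1 MS, these 13 were called. Such features also passed the low-count filter only through libraries of other groups, so nothing is read from this share. All but 1 of the 13 were placed on chromosome 2, between 300 genes before and 5 genes after mop1. The exception, Zm00001d000798, could not be placed (6.99, 5.44 and 3.35 CPM in WT MS, at least 307-fold lower).

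MSTRG.8452 showed the largest drop, from 30.1, 39.0 and 42.0 CPM in WT MS to 0 counts in mop1-1 MS (at least 2287-fold lower; adjusted p = 7.83e-06, edgeR QL test). MSTRG.8317 and MSTRG.8318, with consecutive numbers, stood at 12.6, 23.3 and 21.9 CPM and at 18.7, 14.4 and 15.6 CPM in WT MS and were at least 1210-fold and at least 972-fold lower. They may be pieces of 1 transcript, which was not tested. MSTRG.8473 (7.25, 9.31 and 7.24 CPM in WT MS) was at least 484-fold lower and MSTRG.8528 (4.01, 5.90 and 7.38 CPM) at least 361-fold lower. Among annotated genes, Zm00001d003128 stood at 12.2, 13.95 and 17.3 CPM in WT MS and 0 in mop1-1 MS (at least 895-fold lower), and Zm00001d003143 at 0.631, 2.29 and 2.36 CPM (at least 114-fold lower).

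The 44 other lower DEGs kept transcripts in mop1-1 MS, with a median fold of 3.37. Zm00001d003306 came closest to silence, from 28.3, 26.1 and 71.6 CPM in WT MS to 0.101, 0 and 0.0338 CPM in mop1-1 MS (log2FC -9.83, SE 0.71, adjusted p = 8.30e-05, edgeR QL test). WT MS replicate 3 was the highest of its WT libraries. By estimated place Zm00001d003306 lies close to Zm00001d003304 (45 and 46 genes before mop1). A gene that was nearly silent in the mutant and a gene that was nearly silent in WT were thus placed close together. Besides the 26 lower DEGs placed near mop1 there were 31, of which 29 were placed outside the 400 genes on each side of mop1 and 2 could not be placed, Zm00001d000791 and Zm00001d000798. Apart from Zm00001d000798 they were between 1.98-fold and 10.9-fold lower, with a median of 3.07-fold. The largest of these was Zm00001d035336 on chromosome 6 (3.94, 3.39 and 2.93 CPM against 0.555, 0.111 and 0.271 CPM), whose call ended without mop1-1 MS replicate 3 (adjusted p = 0.0523, edgeR QL test). The most abundant was Zm00001d052263 on chromosome 4 (83.6, 72.3 and 87.6 CPM against 41.6, 43.5 and 37.8 CPM), whose log2FC of -0.99 missed the fold threshold without mop1-1 MS replicate 3 or WT MS replicate 3 (-0.93 in both). Zm00001d020530 on chromosome 7 stood at 74.8, 82.2 and 54.3 CPM against 36.4, 29.2 and 36.3 CPM, and its call ended in 5 of the 12 fits without 1 library (highest adjusted p = 0.0963, without WT MS replicate 2). MSTRG.17127 on chromosome 4 fell from 38.2, 23.3 and 25.9 CPM to 7.05, 1.53 and 2.69 CPM (log2FC -2.96), and was not called without mop1-1 MS replicate 3 (adjusted p = 0.0643).

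The place of the DEGs was examined because siblings from a selfed heterozygote that are homozygous at mop1 can also share the chromosome segment around it. Annotated genes were placed by their identifier number and assembled loci by their assembler number, which are estimates (89.6% of checked positions of assembled loci fell on the estimated chromosome). Within 400 genes on each side of mop1 on chromosome 2, 44 of 588 tested features were called (7.48%), 18 higher and 26 lower. Elsewhere on the 10 chromosomes 186 of 25220 were called (0.738%), 157 higher and 29 lower. The window held 2.28% of the tested features that were placed, 47.3% of the placed lower DEGs and 10.3% of the placed higher DEGs. With 200 genes on each side, 37 of 330 features were called, and with 800 it was 56 of 1228.

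From 200 genes before to 100 genes after mop1, 36 of 234 features were called (15.4%), 11 higher and 25 lower. By steps of 100 genes the share was 21.1% from 200 to 100 genes before mop1, 16.5% in the next step and 8.86% in the first step after it. From 100 to 400 genes after mop1, 1 of 223 was called, and from 400 to 800 genes after it 9 of 324 (2.78%), all higher. Outside the 400 genes, chromosome 2 had 21 calls among 2534 features (0.829%), inside the range of the other chromosomes, which was 0.422% on chromosome 8 to 1.25% on chromosome 7. Lower DEGs numbered 2 to 6 on each chromosome other than 2. Annotated DEGs in the window were 12 higher and 12 lower. Besides Zm00001d003128, Zm00001d003143 and Zm00001d003306 (all lower) these included Zm00001d003140 and Zm00001d003304 (both higher). For features in the window, the mutation and the linked sequence cannot be told apart. Of the 133 called assembled loci, 20 had another called within 3 numbers, and 9 of the 10 neighbouring pairs moved in 1 direction. Whether this is more or less than for loci scattered over all numbers was not tested.

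**Figure D3:**
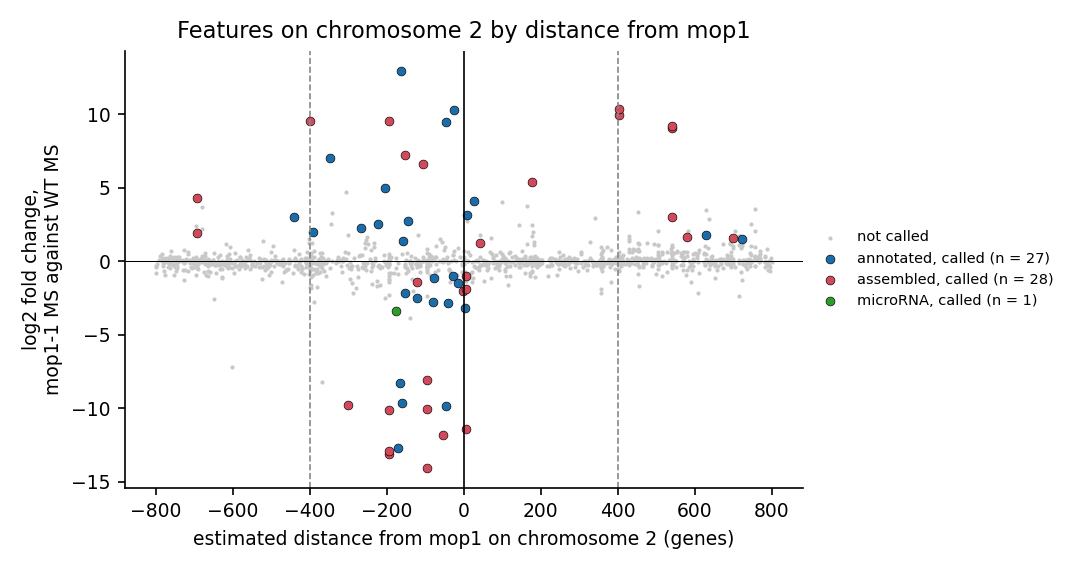
Log2 fold change of mop1-1 MS against WT MS (vertical) of the tested features on chromosome 2 within 800 genes of mop1, by estimated distance from mop1 in genes (horizontal, negative before mop1). Dashed lines mark 400 genes on each side, grey points were not called and coloured points are DEGs by kind; the DEGs past -5 on the vertical axis all lie between 300 genes before and 5 genes after mop1.

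MIR156e was the DEG with a name. It encodes a precursor of miR156, which represses SBP transcription factors and holds plants in the juvenile phase, and it stood at 16.1, 18.7 and 18.7 CPM in WT MS against 1.31, 2.37 and 1.40 CPM in mop1-1 MS (10.5-fold lower; log2FC -3.39, SE 0.27, adjusted p = 4.14e-05, edgeR QL test). It was placed 175 genes before mop1, within the window described above. The other 6 MIR156 precursors tested were MIR156d, MIR156f, MIR156g, MIR156i, MIR156j and MIR156k. None of these 6 was called by the QL test, by the edgeR exact test or by DESeq2, and their log2 fold changes ran from -0.46 for MIR156j to 0.22 for MIR156g. MIR156g, the most abundant in WT MS, stood at 24.6, 30.6 and 26.8 CPM there and 32.9, 29.996 and 32.5 CPM in mop1-1 MS, so that the ranges overlapped. For MIR156f, on the same chromosome but 1395 genes from mop1, they were 12.997, 18.7 and 26.9 CPM and 19.9, 21.7 and 24.1 CPM. The SBP gene with a name, lg1, which sets the boundary of blade and sheath, was at 0.598 ± 0.476 CPM in WT MS against 0.6001 ± 0.255 CPM in mop1-1 MS (SD, n = 3).

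**Figure D4:**
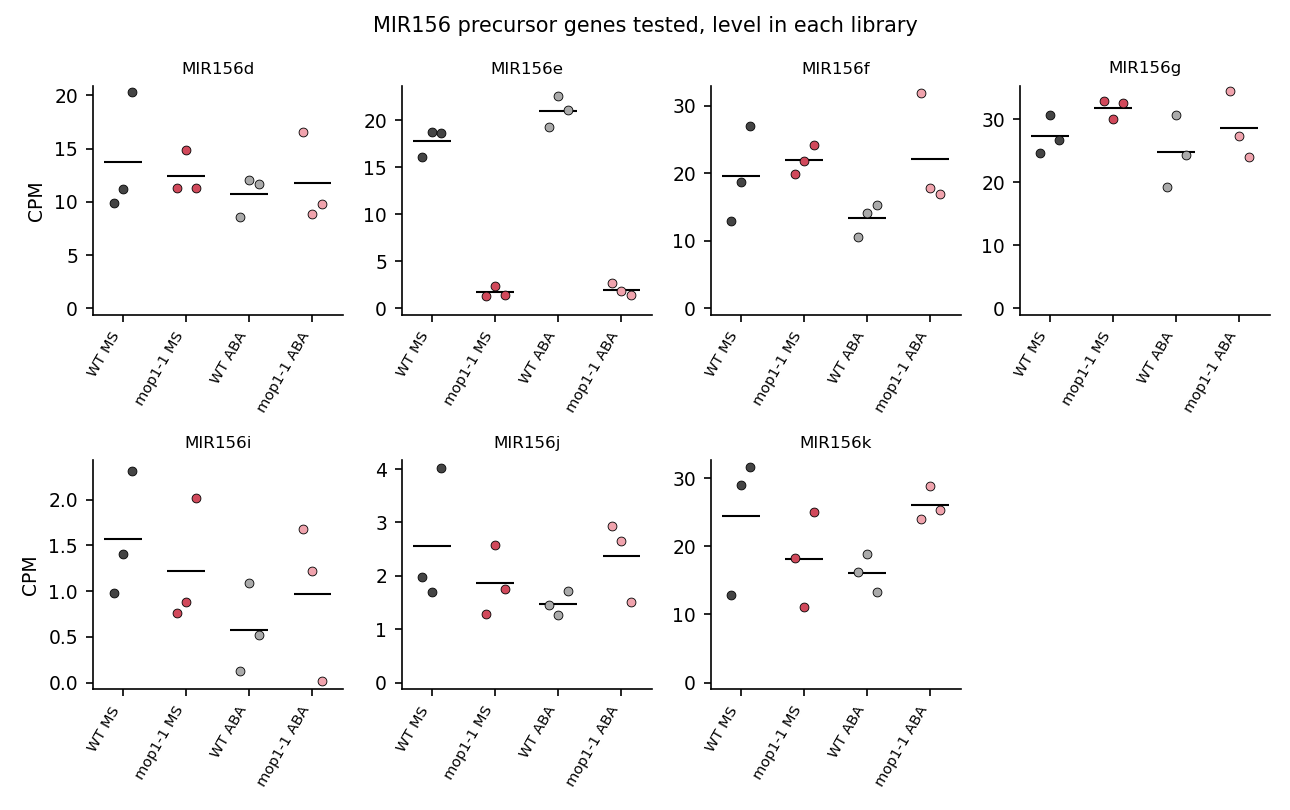
Level in CPM (vertical, linear axis from 0) of the 7 MIR156 precursors tested, in the 12 libraries by group; each point is 1 library and the bar is the mean of 3. MIR156e is at 16.1 to 18.7 CPM in WT MS and 1.31 to 2.37 CPM in mop1-1 MS, while in the other precursors the libraries of the genotypes overlap without ABA.

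Over all 29 microRNA genes tested, 22 had a negative log2 fold change and the median was -0.36, against -0.0045 over all features. MIR156e was the single call (3.45%, against 0.905% of all features), and 3 genes (10.3%) had an unadjusted p under 0.05, at the background of 10.2%. The others were MIR396d, of the family that targets growth-regulating factors, at 6.66, 8.45 and 15.0 CPM in WT MS against 8.26, 4.13 and 5.39 CPM in mop1-1 MS (adjusted p = 0.394, edgeR QL test), and MIR159a, of the family that targets MYB factors, at 11.4, 13.6 and 11.1 CPM and 9.90, 7.18 and 9.74 CPM (adjusted p = 0.450). MIR169i stood at 7.31, 7.08 and 6.94 CPM against 5.65, 5.30 and 4.16 CPM (adjusted p = 0.490). MIR2118d, which is also in the mop1 window (168 genes after it), was at 11.1 ± 2.19 CPM in WT MS against 10.8 ± 2.46 CPM in mop1-1 MS (SD, n = 3).

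Genes with a name were otherwise not called. Of 285 annotated genes with a name that were tested, 0 were called by the QL test, 30 had an unadjusted p under 0.05, the edgeR exact test called 6 and DESeq2 called 7. As shares these are 10.5%, 2.11% and 2.46%, beside 10.2% (2702), 2.08% (549) and 2.42% (639) of all 26401 features, so the named genes were at the background by these measures. Of 25 gene lists 22 had a tested member, with 112 genes in all, and their median log2 fold change was -0.11. By the QL test 0 of the 112 were called, where 0.905% of all features were, and 14 (12.5%) had an unadjusted p under 0.05, near the 10.2% of all features. The exact test and DESeq2 each called 6 (5.36%). WRKY53 and WRKY TF 36 as higher and gst19, PYL3 and PPCK4 as lower were called by both, while the exact test also called hsp17.2 and DESeq2 the NAC factor Zm00001d011589, both as lower. Most maize genes carry no name in the table used here, so the lists hold a small part of each family. Several lists, among them the AP2/ERF and DREB, PP2C and cytokinin lists, share members with the study's list of genes with predicted targets, described below. Those genes were picked on these same libraries, so nothing is read from the direction of such lists.

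Of the silencing machinery, rdr6, an RNA-dependent RNA polymerase related to MOP1 that makes trans-acting small RNAs, was at 26.3, 29.1 and 27.0 CPM in WT MS against 31.9, 33.0 and 32.5 CPM in mop1-1 MS (log2FC 0.24, adjusted p = 0.375, edgeR QL test). Its groups did not overlap, but the difference was small and did not pass. The 4 DNA methylation and chromatin genes tested had a median of -0.06 and the 4 histone genes one of -0.14. No gene of the anthocyanin list, which holds the loci known for paramutation, was named among the features.

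Among transcription factors, WRKY53 was at 3.35, 1.84 and 1.67 CPM in WT MS against 22.2, 6.64 and 14.7 CPM in mop1-1 MS (log2FC 2.67, SE 0.65, adjusted p = 0.0982, edgeR QL test). WRKY TF 36 was at 2.07, 1.61 and 3.39 CPM against 10.6, 3.83 and 5.46 CPM (adjusted p = 0.127). In both genes the mutant libraries lay above those of WT but were far apart among themselves. The list of WRKY factors, many of which act in stress and defence, had 8 tested members and a median of 0.11. NAC TF 13 was at 1.22, 1.31 and 1.20 CPM against 1.92, 3.16 and 3.48 CPM (adjusted p = 0.243), and the NAC factor Zm00001d011589 went the other way, at 18.2, 9.78 and 3.39 CPM against 4.44, 1.98 and 4.04 CPM (adjusted p = 0.245, with WT MS replicate 3 inside the mutant range). The 4 NAC factors had a median of -0.14. MADS69, a flowering-time gene, was at 0.914, 1.24 and 1.43 CPM against 4.51, 2.28 and 3.33 CPM (adjusted p = 0.234), and the MADS and flowering list had 2 members and a median of 0.43. The medians of the other factor lists were -0.45 for 9 AP2/ERF and DREB factors, -0.06 for 5 bZIP and ABI3-VP1 factors, -0.02 for 5 MYB factors, -0.22 for 4 bHLH factors and -0.34 for 4 homeobox factors.

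In hormone signalling, PYL3, of the ABA receptor family, was at 5.29, 4.94 and 4.86 CPM in WT MS against 2.66, 2.07 and 2.79 CPM in mop1-1 MS (log2FC -1.004, SE 0.24, adjusted p = 0.0940, edgeR QL test). The replicates of each genotype were close to each other and did not overlap, and the gene passed the other tools but not the QL test. The 4 genes of the ABA receptor and SnRK2 kinase list had a median of -0.54. The 6 PP2C phosphatases, which hold those kinases inactive until ABA is bound, were all negative with a median of -0.45. Protein phosphatases 2C 32, A5, A9 and 26 among them are also in the study's list of genes with predicted targets, picked on these same libraries. Nothing is therefore read from the shared direction of the PP2C phosphatases. Of the PP2C phosphatases 1 had an unadjusted p under 0.05, protein phosphatase 2C 32 (adjusted p = 0.466, edgeR QL test). The median was -0.14 for 5 jasmonate genes, 0.02 for 12 auxin genes and -0.75 for 3 cytokinin genes.

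Among metabolic and stress genes, PPCK4, a kinase that phosphorylates the carbon-fixing enzyme PEP carboxylase, was at 13.1, 14.7 and 19.6 CPM in WT MS against 1.95, 7.21 and 6.71 CPM in mop1-1 MS (log2FC -1.58, SE 0.36, adjusted p = 0.0770, edgeR QL test). It lies 217 genes before mop1, and it was called without mop1-1 MS replicate 1 (adjusted p = 0.017). The glutathione transferase gene gst19 was at 69.4, 80.9 and 86.1 CPM against 44.3, 33.5 and 43.0 CPM (adjusted p = 0.177), and gst42, of the same family, was at 25.5 ± 21.4 CPM against 48.2 ± 20.3 CPM (SD, n = 3; adjusted p = 0.5998). Medians were -0.18 for 12 photosynthesis genes, -0.22 for 6 glutathione transferases, -0.36 for 6 heat shock and chaperone genes, -0.11 for 3 dehydrin and late embryogenesis genes and 0.12 for 4 sugar and starch genes. Another 2 genes with a name had an adjusted p under 0.05 but a fold under the threshold, and were named after their values were seen. These were pcr1 (1390, 1579 and 1201 CPM against 814, 885 and 863 CPM, log2FC -0.70, adjusted p = 0.0331) and Sae2b, related to a yeast DNA repair factor (19.7, 26.4 and 24.1 CPM against 36.8, 50.5 and 43.9 CPM, 0.90, adjusted p = 8.59e-03).

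The study lists 26 genes with predicted targets in a regulatory network, of which 23 were tested. In Group D 0 of them were called by the QL test, 6 (26.1%, against 10.2% of all features) had an unadjusted p under 0.05, the exact test called 1 and DESeq2 called 2. Their median log2 fold change was -0.52, with 20 of 23 negative. The study picked these genes on the same libraries, among those it found to differ with ABA and not without it, so a low count of calls in Group D was set by the choice and nothing is read from the count or the direction. The smallest adjusted p was 0.114 for trihelix TF 22 (11.1, 16.7 and 13.5 CPM in WT MS against 9.50, 8.76 and 9.18 CPM in mop1-1 MS, edgeR QL test). ABI3-VP1 TF 28 was at 2.94, 5.05 and 5.18 CPM against 2.51, 1.93 and 2.49 CPM (adjusted p = 0.203).

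Whether the baseline differences recur was examined in the 6 ABA libraries, which compare the same genotypes and share no library with Group D. All 182 higher DEGs had a positive log2 fold change there, with a median of 2.85 against 3.24 without ABA, and 56 of the 57 lower DEGs a negative one, with a median of -1.72 against -1.97. Of the higher DEGs 74.2% were called as higher again, where 0.769% of all features were called as higher with ABA, and 94.5% had groups that did not overlap, against 12.5% of all features. Of the lower DEGs 73.7% were called as lower again, against 0.424% of all features, and 96.5% did not overlap, against 12.4%. The ABA libraries also entered the low-count filter and the estimate of spread behind the Group D calls. The shares called again are therefore not wholly separate from the choice of DEGs. Assembled loci were called again more often (83.2% of higher and 80.0% of lower DEGs) than annotated genes (59.4% and 69.4%), a difference that was not tested. MIR156e was at 19.3, 22.6 and 21.1 CPM in WT ABA and 2.66, 1.804 and 1.46 CPM in mop1-1 ABA. The test of the difference between the genotype effects with and without ABA called 0 features (edgeR QL test), while 1120 of 26401 features were under 0.05 before adjustment and the smallest adjusted p was 0.276. That smallest value was of MSTRG.25274, the lower DEG that went the other way. Its call without ABA was the least firm of those named (it ended in 11 of the 12 fits without 1 library, highest adjusted p = 0.154 without mop1-1 MS replicate 1).

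**Figure D5:**
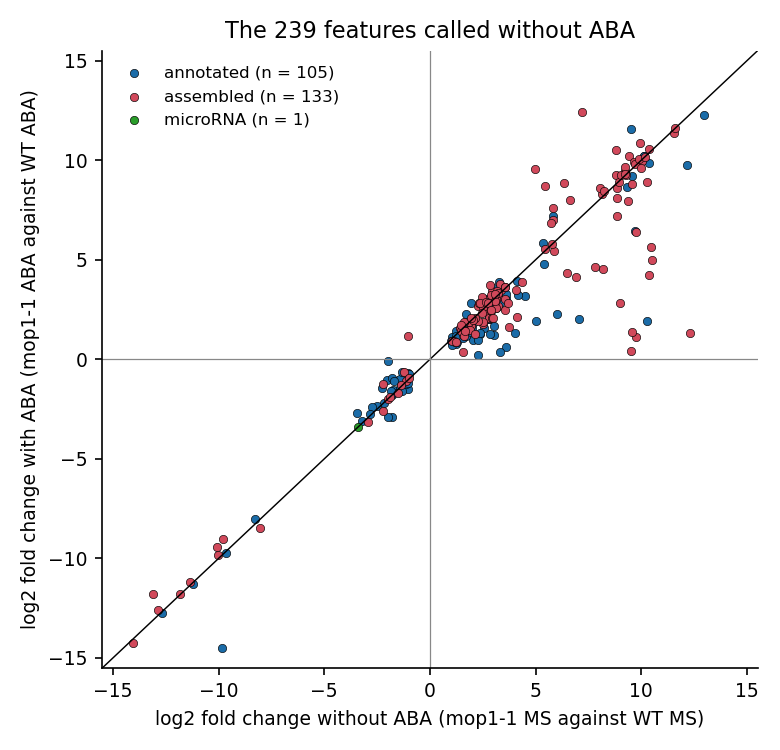
Log2 fold change of mop1-1 against WT for the 239 DEGs of Group D, without ABA (horizontal) and with ABA (vertical), in 6 separate libraries each; the line marks equal values. Points at the far ends rest on groups with 0 counts, whose fitted fold changes have no upper limit, and 1 point, MSTRG.25274, lies in a quadrant of opposite sign.

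WT MS replicate 3 decided how many moderately lower features passed. Without it Group D had 449 DEGs, 215 higher and 234 lower, which included 206 of the 239. Of the 243 that were new, 184 were lower in mop1-1 MS, and replicate 3 was the lowest of the WT libraries in 182 of them. These features were selected by leaving replicate 3 out, so its low place among them follows from that choice. Their median level was 77.4, 48.2 and 18.5 CPM in WT MS replicates 1 to 3, 18.2, 20.7 and 21.1 CPM in mop1-1 MS, 42.9, 40.3 and 43.5 CPM in WT ABA and 13.99, 18.8 and 17.9 CPM in mop1-1 ABA. In 137 of the 184, replicate 3 was at or below the highest mop1-1 MS library, while the WT ABA libraries were close to each other. By the same medians WT MS replicate 1 was above WT ABA and replicate 3 below it. Which of these libraries was unusual was not tested. With ABA 180 of the 184 were also negative and 24 were called. The named genes that the QL test called without this library, and not with all 12, were hsp17.2, a small heat shock protein (1003, 551 and 285 CPM in WT MS against 278, 234 and 132 CPM in mop1-1 MS, adjusted p = 0.197 with all libraries and 0.0427 without replicate 3, edgeR QL test), HK1b1 (100.1, 83.6 and 24.7 CPM against 34.8, 37.2 and 34.8 CPM), the NAC factor Zm00001d011589, G2-like TF 24, ERTC and, as higher, sfp4. Other libraries moved the number of DEGs less, to between 171 without WT MS replicate 2 and 234 without WT ABA replicate 3. In all 12 fits without 1 library 139 of the 239 stayed called, 115 higher and 24 lower, of which 90 were assembled loci, 48 annotated genes and 1 MIR156e.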

How the data were processed

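The values are raw counts per gene as deposited by the authors (fastp 0.21.0, Cutadapt, HISAT2 2.2.1 on B73 version 4, StringTie 2.1.4 with its count script). Whether counting used strand is not given in the sources used here, so overlapping genes may share reads. Features with at least 0.58 CPM, the study's limit, in at least 3 libraries were tested in edgeR 4.0.16 (glmQLFit, glmQLFTest, two-sided, TMM, 4 group means over all 12 libraries, Benjamini-Hochberg adjustment), with the study's thresholds. DESeq2 1.42.0, the edgeR exact test and other settings were alternatives. The fit was tested on simulated data.

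Names came from the table, the study's gene list and RefSeq (assembly Zm-B73-REFERENCE-NAM-5.0, for names and gene order only; 2056 of 28534 annotated genes matched, 309 named). Positions were interpolated along identifier numbers through 2040 matched genes, and assembled loci were placed through 4080 table rows beside annotated genes, a step chosen after seeing the data. The features named were DEGs with a name, the 5 largest changes and 3 highest levels of each kind and direction among other DEGs (groups not overlapping, higher mean 1 CPM or more), the leading genes of each list, and study genes with an unadjusted p under 0.05. Lists were patterns on gene names, from which accidental matches were removed. The comparison, lists and rules were chosen with earlier results of these data known. Replicates differed by more than counting noise (chi-square per degree of freedom at least 30.6), and p-values measure the spread between these libraries.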

Additional observations from a re-analysis of the deposited data

Results flagged for a closer look

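MSTRG.25274, an assembled locus on chromosome 7 by its number, stood out because every mop1-1 library was below the WT libraries without ABA and above them with ABA. Without ABA it was at 51.2, 47.5 and 58.8 CPM in WT MS and 19.1, 29.4 and 29.2 CPM in mop1-1 MS (log2FC -1.02, meaning the log2 fold change, with adjusted p = 0.0486 in the edgeR QL test). With ABA it was at 20.4, 23.1 and 27.8 CPM in WT ABA and 60.3, 38.1 and 62.6 CPM in mop1-1 ABA (log2FC 1.18, adjusted p = 0.0188). Neither pair of groups overlapped. The difference between the effects did not pass over all features (edgeR QL interaction test, adjusted p = 0.276).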

How the results depend on the processing

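The 239 DEGs (182 higher, 57 lower, 105 annotated, 133 assembled) changed most with the test. The edgeR exact test gave 549 (366 higher, 183 lower, 285 annotated, 263 assembled) and DESeq2 639 (433 higher, 206 lower, 344 annotated, 294 assembled), and both kept all 239. The 6 MS libraries alone gave 156 (30 lower, 56 annotated) and annotated genes alone 87 (57 higher, 30 lower). An alternative chosen after seeing the data, leaving out all features placed near mop1, gave 177, of which 25 were lower. Without 1 library at a time there were 171 to 449 DEGs, 123 to 215 higher, 40 to 234 lower, 72 to 266 annotated and 97 to 182 assembled, where each highest value is without WT MS replicate 3. With replicate number as a block there were 188 DEGs, 177 of them shared with the 239. Same-numbered libraries deviated together at -0.04 to 0.05, so the numbers do not pair the libraries. Other normalization and low-count filters gave 230 to 255. No named feature turned its direction in any of these. The floor of 3 counts limits each fold of a feature at 0.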
